A study of Mus musculus with 18 samples.

Results

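E0771, a cell line from a mouse mammary tumor, is one that the submitters class as triple negative. The genes described here are 10 genes of the NF-κB system, namely the subunit genes Nfkb1, Nfkb2, Rel, Rela and Relb and the feedback genes Nfkbia, Nfkbie, Nfkbiz, Tnfaip3 and Birc3. They were chosen by name, because CDK8 and CDK19 are known as coregulators of NF-κB, and with earlier results of these data known. They are 10 of 50686 genes in the count files and 10 of 12772 genes tested. All 10 passed the filter on low counts. Cells carried a hairpin against Renilla luciferase (cntrl) or 1 of 2 hairpins against Cdk8 (shCdk8.1593 or shCdk8.1830, named as in the labels). Cells of each line received DMSO or 1 µM of Senexin B (SnxB) for 48 h. SnxB is an inhibitor of the kinases CDK8 and CDK19. This gave 6 groups with 3 RNA-seq libraries each. All lines also carried a firefly luciferase transgene selected with puromycin and were sorted for mCherry, the reporter of the retroviral hairpin vector, with no cloning step stated in the methods. No more than 1 line per hairpin is described, so an effect of a hairpin cannot be told apart from a difference between lines. The headers of the count files for shCdk8.1830 repeat a replicate number within each group, and separate cultures are not stated for any group, so the p-values measure the spread between libraries, which may be technical.

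NF-κB is a family of dimeric transcription factors that answer inflammatory cytokines and microbial products. In resting cells inhibitor proteins of the IκB family hold the dimers in the cytoplasm, and the IKK kinases release them by marking IκB for degradation. Many direct targets of NF-κB encode its own inhibitors and ubiquitin-editing enzymes, so that their mRNA levels are widely used as a readout of the pathway. The sequence the dimers bind is called the κB site.

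Promoter sequences were available for 7 of the 10 genes in the RefSeq table of GRCm38.p6, and Nfkb1, Relb and Nfkbiz had no entry. The first listed promoter of each gene, 250 bases before to 50 bases after the start site, was searched on both strands for the 10-base κB consensus. It matched in 5 of the 7 genes (Nfkb2, Rel, Nfkbia, Nfkbie and Tnfaip3) and not in Rela or Birc3. A match was also found in 4.35% of all 27025 promoters listed, and in 4.94% of the 9418 promoters of genes tested. The stretches from 20 bases before the first match to the base before the start site are shown because they hold these matches, which are in capitals. All are written 5′ to 3′ on the strand of the gene.
Nfkbie (chr17:45555574-45555699, plus strand): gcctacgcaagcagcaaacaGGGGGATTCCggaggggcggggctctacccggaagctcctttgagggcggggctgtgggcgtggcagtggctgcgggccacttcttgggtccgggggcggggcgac
Nfkbia (chr12:55492648-55492696, minus strand): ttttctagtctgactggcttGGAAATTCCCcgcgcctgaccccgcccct
Nfkb2 (chr19:46304678-46304736, plus strand): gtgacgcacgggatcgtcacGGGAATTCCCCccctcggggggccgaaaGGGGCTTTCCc
Rel (chr11:23770970-23771081, minus strand): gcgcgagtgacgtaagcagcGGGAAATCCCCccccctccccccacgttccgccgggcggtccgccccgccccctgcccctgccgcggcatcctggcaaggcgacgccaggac
Tnfaip3 (chr10:19015411-19015555, minus strand): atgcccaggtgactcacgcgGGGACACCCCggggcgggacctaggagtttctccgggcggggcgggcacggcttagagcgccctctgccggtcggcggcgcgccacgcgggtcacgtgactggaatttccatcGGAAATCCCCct
The match in Nfkbie begins at position -106 from the start site and that in Nfkbia, on the opposite strand, at -29. Those in Tnfaip3 begin at -125 and, on the opposite strand, at -12. Nfkb2 held overlapping matches at -39 (both strands) and -38 (opposite strand) and another at -11. Rel held overlapping matches at -92 (both strands) and -91 (opposite strand). A match is a description of the letters in this window and not evidence of binding.

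The libraries held 16452260 to 22664693 counts, and 3 counts in a library equal 0.132 to 0.182 CPM, which are counts scaled to library size. Each of the 10 genes had at least 60 counts in every library. In DMSO, Cdk8 averaged 56.1 ± 2.13 CPM (SD, n = 3) in cntrl, 21.4 ± 2.44 CPM (SD, n = 3) with shCdk8.1593 and 38.9 ± 0.376 CPM (SD, n = 3) with shCdk8.1830, so shCdk8.1593 was the stronger hairpin at the mRNA level. Cdk19, the paralog of Cdk8, was 93.7 CPM in cntrl, 125 CPM with shCdk8.1593 and 102 CPM with shCdk8.1830 in DMSO, and both increases passed the test. Of the markers that define mammary epithelium, Krt18, Krt5 and Krt14 had at most 1 count in any library, and the 6 epithelial markers summed to 0 to 0.392 CPM in the cntrl libraries and 7.48 to 14.4 CPM in the knockdown libraries, most of it Krt8. Vim, a mesenchymal marker, was at 3562 to 4498 CPM. In DMSO the 6 mesenchymal markers summed to 4905 to 5051 CPM in cntrl cells and to 4207 to 4434 and 4547 to 4710 CPM with shCdk8.1593 and shCdk8.1830. Most of this sum was Vim, with Pdgfra and Pdgfrb at 286 and 265 CPM in cntrl cells in DMSO. Col1a1, however, averaged 0.78 CPM in cntrl and 16.6 and 9.91 CPM with the hairpins, and Col1a2 0.0344, 0.517 and 0.373 CPM. Thy1 had at most 1 count in any library. Esr1, whose protein is by definition not detected in triple-negative tumors, was at 23.1 CPM in cntrl cells in DMSO and at 1.25 and 0.951 CPM in the shCdk8.1593 and shCdk8.1830 cells. The 6 leukocyte markers summed to at most 1.2 CPM in any library, and in DMSO they summed to 0.434 to 0.986 CPM in cntrl cells and to at most 0.11 CPM in knockdown cells. The 3 endothelial markers moved in opposite directions. In DMSO Pecam1 averaged 0.286 CPM in cntrl, 14.3 CPM with shCdk8.1593 and 5.85 CPM with shCdk8.1830, Cdh5 4.34, 0.206 and 0.595 CPM, and Kdr 0.606, 0.0534 and 0.112 CPM, and their sums were 4.95 to 5.61, 13.6 to 15.2 and 6.41 to 6.83 CPM. In bulk RNA fewer cells of a type and less RNA per cell cannot be told apart, and the part of these differences in the results below was not tested.

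Levels in cntrl cells in DMSO were divided by the merged length of all annotated exons of a gene, which is not the length of a single transcript. By this measure Rela was the highest of the 10 genes at 55.2 CPM per kb, followed by Nfkbia at 40.5, Nfkb2 at 25.6 and Nfkb1 at 19.1 CPM per kb. The order depends on these lengths, which were 12061 bases for Nfkb1 and 2716 bases for Rela. Undivided by length, Nfkb1 was at 230 CPM and Rela at 150 CPM. Nfkbie, Relb, Nfkbiz, Rel and Birc3 lay between 5.35 and 1.65 CPM per kb. Tnfaip3 was the least abundant, at 0.638 CPM per kb. These cells thus held mRNA of every NF-κB subunit, with the genes of the classical dimer partners, Rela and Nfkb1, and of p100, Nfkb2, far above Rel and Relb.

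Most of the 10 genes were lower with both Cdk8 hairpins in DMSO. With shCdk8.1593, 8 genes were lower and 0 higher by edgeR's quasi-likelihood test (adjusted p under 0.05 after Benjamini-Hochberg adjustment over all genes tested), while 29.5% of all genes tested were lower and 30.1% higher. With shCdk8.1830, 8 genes were lower and 0 higher, against 28.1% lower and 29.0% higher among all genes. Passing the test is called rising or falling from here on. The groups did not overlap for 9 genes with shCdk8.1593 and 7 with shCdk8.1830, where 64.8% and 65.0% of all genes tested did not overlap. The median log2 fold change of the 10 genes was -0.36 with shCdk8.1593 and -0.27 with shCdk8.1830, and that of all genes was 0.01 in both. Without regard to direction, the medians were 0.36 and 0.27 for the 10 genes and 0.27 and 0.24 for all genes. Only Nfkbie fell by more than 2-fold as well, 1 of the 10 genes with each hairpin, against 7.14% and 5.95% of all genes. Both comparisons use the same 3 cntrl libraries, so their results are given side by side and not counted as independent.

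**Figure D1:**
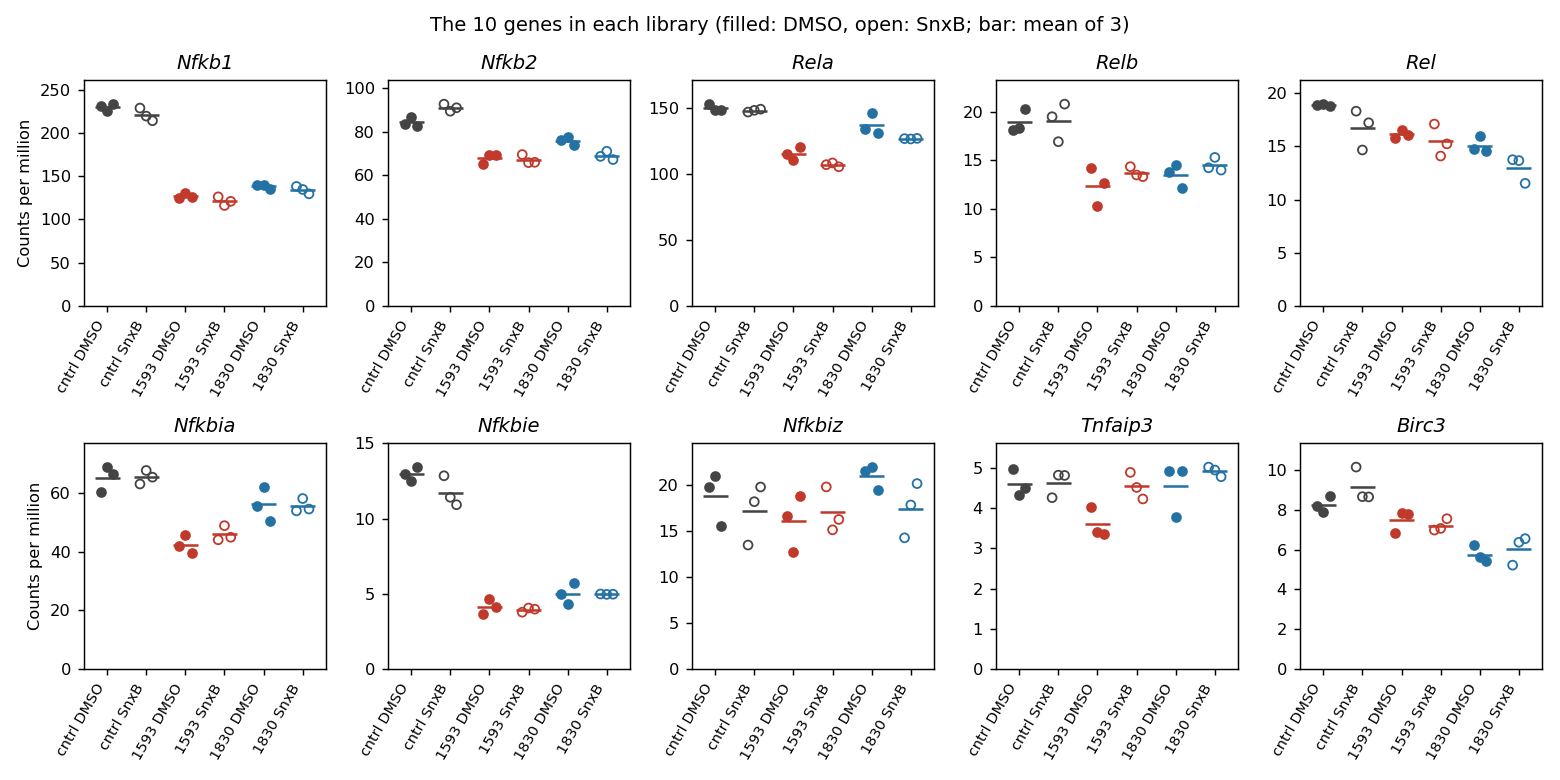
CPM of the 10 genes (1 panel each, axis from 0) in the 18 libraries, with 1 point per library, filled in DMSO and open in SnxB, and a bar at the mean of each group of 3 (grey: cntrl, red: shCdk8.1593, blue: shCdk8.1830). Nfkbie and Nfkb1 are lower in all 12 knockdown libraries than in all 6 cntrl libraries, whereas the groups of Nfkbiz overlap and Tnfaip3 stays between 3.36 and 5.03 CPM.

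Nfkbie (ENSMUSG00000023947.7; chromosome 17, 45555716 to 45563169, plus strand, GRCm38), which encodes the inhibitor IκBε, changed most. It was at 12.9, 12.5 and 13.4 CPM in the cntrl libraries in DMSO, at 3.62, 4.62 and 4.13 CPM with shCdk8.1593, and at 4.96, 4.34 and 5.70 CPM with shCdk8.1830. Every knockdown library was below every cntrl library, and the knockdown groups overlapped each other. The log2 fold change was -1.66 with shCdk8.1593 (SE 0.101, adjusted p = 1.67e-11) and -1.38 with shCdk8.1830 (SE 0.0968, adjusted p = 2.23e-10), so that Nfkbie mRNA fell by 68.4% and by 61.5%. Its nearest tested neighbours, named after their values were seen, lay far from these values: Slc35b2, 795 bases away, had log2 fold changes of -0.08 and 0.04 and Hsp90ab1, 4606 bases away, 0.23 and 0.22.

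Nfkbia (ENSMUSG00000021025.8; chromosome 12, 55489410 to 55492647, minus strand) encodes IκBα, the inhibitor that NF-κB itself induces to end a response. Its cntrl libraries were at 60.4, 68.8 and 66.3 CPM in DMSO, the shCdk8.1593 libraries at 41.9, 45.8 and 39.4 CPM, and the shCdk8.1830 libraries at 55.5, 62.1 and 50.6 CPM. All 3 shCdk8.1593 libraries were below cntrl, but the shCdk8.1830 libraries overlapped with cntrl. Nfkbia fell with shCdk8.1593 (log2 fold change -0.62, SE 0.0698, adjusted p = 1.64e-07) and less with shCdk8.1830 (-0.22, SE 0.0679, adjusted p = 0.0094), and without shCdk8.1830 replicate 3 in DMSO the latter no longer passed (adjusted p = 0.0743). The shCdk8.1830 cells held more Nfkbia mRNA than the shCdk8.1593 cells (log2 fold change 0.41, SE 0.07, adjusted p = 0.000278).

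Nfkb1 (ENSMUSG00000028163.17; chromosome 3, 135584655 to 135691547, minus strand), the gene of the p105 precursor of p50, changed most among the subunit genes. Its cntrl libraries in DMSO were at 232, 225 and 234 CPM, the shCdk8.1593 libraries at 125, 131 and 126 CPM, and the shCdk8.1830 libraries at 140, 140 and 135 CPM. The knockdown libraries lay well below cntrl, and the shCdk8.1593 libraries lay just below the shCdk8.1830 libraries. The log2 fold change was -0.86 with shCdk8.1593 (SE 0.0379, adjusted p = 1.04e-13) and -0.74 with shCdk8.1830 (SE 0.0376, adjusted p = 1.64e-12). Among the 10 genes the fall of Nfkb1 with each hairpin had the smallest adjusted p. The difference between the hairpins was 0.12 (SE 0.0382, adjusted p = 0.0275) and no longer passed without the low-count filter (adjusted p = 0.12) or without 1 of 4 libraries, namely shCdk8.1593 replicate 1 or 3 or shCdk8.1830 replicate 1 or 2 (adjusted p = 0.105, 0.0976, 0.112 and 0.0928).

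Nfkb2 (ENSMUSG00000025225.14; chromosome 19, 46304737 to 46312090, plus strand), the gene of the p100 precursor of p52, fell less than Nfkb1. It was at 83.5, 86.8 and 82.8 CPM in cntrl cells in DMSO, at 65.0, 69.3 and 69.3 CPM with shCdk8.1593 and at 76.2, 77.6 and 73.8 CPM with shCdk8.1830. These 3 groups did not overlap. The log2 fold change was -0.31 with shCdk8.1593 (SE 0.0395, adjusted p = 8.43e-07) and -0.15 with shCdk8.1830 (SE 0.0392, adjusted p = 0.00239), and the hairpins differed by 0.16 (SE 0.0395, adjusted p = 0.00557). Without shCdk8.1593 replicate 1 that difference had an adjusted p of 0.0539.

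As Nfkb1 fell more than Nfkb2, the ratio of the levels per length of Nfkb2 to Nfkb1 moved. In DMSO it was 1.34 ± 0.0601 (SD, n = 3) in cntrl cells, 1.96 ± 0.0583 (SD, n = 3) with shCdk8.1593 and 2.01 ± 0.0171 (SD, n = 3) with shCdk8.1830. In SnxB it was 1.51 ± 0.0399 (SD, n = 3) in cntrl cells, 2.03 ± 0.0403 (SD, n = 3) with shCdk8.1593 and 1.88 ± 0.0574 (SD, n = 3) with shCdk8.1830. The lowest ratio in a knockdown library was 1.82 and the highest in a cntrl library 1.56, and no test was run on the ratio, which restates the changes of both genes. Its size rests on merged exon lengths of 3289 bases for Nfkb2 and 12061 bases for Nfkb1, so it does not show which mRNA was more abundant. Undivided by length, Nfkb2 was at 84.4 CPM and Nfkb1 at 230 CPM in cntrl cells in DMSO.

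**Figure D2:**
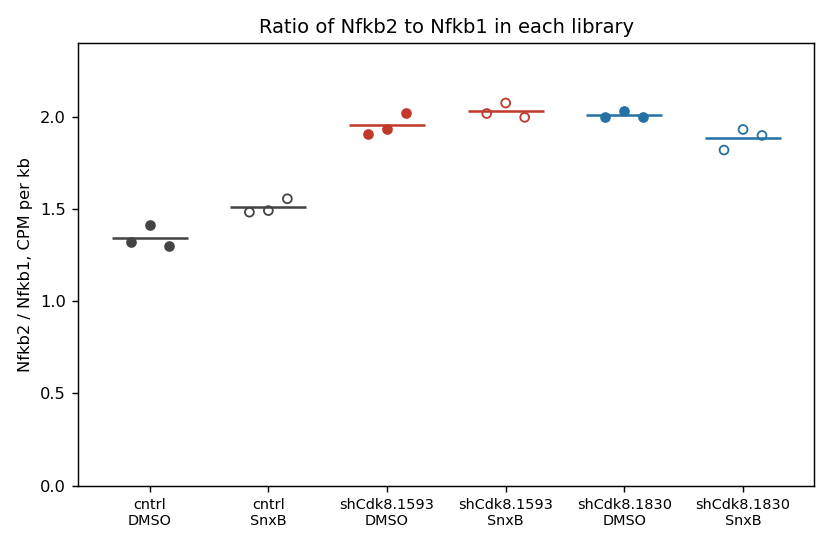
Ratio of Nfkb2 to Nfkb1, each in CPM per kb of exon, in the 18 libraries by group (points: libraries, filled in DMSO and open in SnxB; bars: means of 3; axis from 0). The 6 cntrl libraries lie between 1.30 and 1.56 and the 12 knockdown libraries between 1.82 and 2.08. The size of the ratio depends on the exon lengths used.

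Rela (ENSMUSG00000024927.7; chromosome 19, 5637483 to 5648130, plus strand) encodes p65, the main activating subunit of the classical pathway. In DMSO it was at 153, 149 and 148 CPM in the cntrl libraries, at 115, 110 and 120 CPM with shCdk8.1593 and at 134, 146 and 131 CPM with shCdk8.1830. No library of either hairpin reached cntrl, but shCdk8.1830 replicate 2 came within 3 CPM of it. Rela fell with shCdk8.1593 (log2 fold change -0.38, SE 0.0389, adjusted p = 4.63e-08) and by 0.13 on the log2 scale with shCdk8.1830 (SE 0.0386, adjusted p = 0.0067). The call with shCdk8.1830 was lost with library totals in place of TMM (adjusted p = 0.0552) and without shCdk8.1830 replicate 3 in DMSO (adjusted p = 0.0603). The hairpins differed by 0.25 (SE 0.0389, adjusted p = 9.35e-05).

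Relb (ENSMUSG00000002983.17; chromosome 7, 19606217 to 19629438, minus strand) encodes the partner of p52 in the non-canonical pathway. It was at 18.1, 18.3 and 20.3 CPM in cntrl cells in DMSO, at 14.2, 10.3 and 12.6 CPM with shCdk8.1593 and at 13.8, 14.5 and 12.1 CPM with shCdk8.1830. Both knockdown groups were below cntrl and overlapped each other. Its log2 fold change was -0.60 (SE 0.101, adjusted p = 3.15e-05) with shCdk8.1593 and -0.49 (SE 0.0997, adjusted p = 0.00029) with shCdk8.1830.

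Rel (ENSMUSG00000020275.9; chromosome 11, 23736847 to 23770970, minus strand) encodes c-Rel, a subunit best known from lymphocytes. It was at 18.9, 19.0 and 18.8 CPM in cntrl cells in DMSO, at 15.8, 16.5 and 16.1 CPM with shCdk8.1593 and at 14.7, 15.9 and 14.6 CPM with shCdk8.1830. It fell with shCdk8.1593 (log2 fold change -0.23, SE 0.0856, adjusted p = 0.0279) and with shCdk8.1830 (-0.32, SE 0.0858, adjusted p = 0.00305). All 6 knockdown libraries were below cntrl, yet the call with shCdk8.1593 was lost without any 1 of cntrl replicates 1, 2 and 3 or shCdk8.1593 replicates 1 and 3 in DMSO, with edgeR's adjusted p-values of 0.0511 to 0.0807.

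Birc3 (ENSMUSG00000032000.17; chromosome 9, 7848699 to 7873186, minus strand) encodes the ubiquitin ligase cIAP2, an NF-κB target that acts in TNF receptor signaling and holds back the non-canonical pathway. It was at 8.19, 7.92 and 8.72 CPM in cntrl cells in DMSO, at 6.86, 7.86 and 7.80 CPM with shCdk8.1593 and at 6.22, 5.62 and 5.42 CPM with shCdk8.1830. Here the line with the weaker hairpin had the lower level. The log2 fold change was -0.52 (SE 0.102, adjusted p = 0.000204) with shCdk8.1830, whereas -0.15 with shCdk8.1593 did not pass (SE 0.0988, adjusted p = 0.214), and the hairpins differed by -0.37 (SE 0.103, adjusted p = 0.0128).

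Tnfaip3 (ENSMUSG00000019850.11; chromosome 10, 19000910 to 19015657, minus strand) encodes A20, the ubiquitin-editing enzyme that shuts off signaling to IKK. Its cntrl libraries in DMSO were at 4.99, 4.34 and 4.51 CPM, the shCdk8.1593 libraries at 4.04, 3.42 and 3.36 CPM and the shCdk8.1830 libraries at 4.92, 3.78 and 4.93 CPM. The shCdk8.1593 libraries were below cntrl and the shCdk8.1830 libraries overlapped with it. The log2 fold change of -0.34 with shCdk8.1593 (SE 0.123, adjusted p = 0.0212) did not pass with DESeq2 (adjusted p = 0.0691), without the low-count filter (adjusted p = 0.0742), or without cntrl replicate 1 (0.0843), shCdk8.1593 replicate 2 (0.0635) or shCdk8.1593 replicate 3 (0.082). With shCdk8.1830 it was -0.01 (SE 0.117, adjusted p = 0.943).

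Nfkbiz (ENSMUSG00000035356.16; chromosome 16, 55811375 to 55838899, minus strand) encodes IκBζ, a nuclear member of the IκB family that acts as a coactivator of some targets. It passed the test with neither hairpin. Its libraries in DMSO were at 19.8, 21.0 and 15.6 CPM in cntrl cells, at 16.7, 12.7 and 18.8 CPM with shCdk8.1593 and at 21.5, 22.0 and 19.6 CPM with shCdk8.1830. Both knockdown groups overlapped with cntrl, the log2 fold changes were -0.22 (SE 0.157, adjusted p = 0.247) and 0.17 (SE 0.152, adjusted p = 0.372), and the SE of Nfkbiz was the widest among the 10 genes.

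Set against each other in DMSO, the hairpins differed for 5 of the 10 genes, against 21.1% of all genes tested. The shCdk8.1830 cells held more Nfkb1, Nfkb2, Rela and Nfkbia mRNA than the shCdk8.1593 cells and less Birc3 mRNA. The groups did not overlap for 6 of the 10 genes (39.5% of all genes). Nfkbie was 0.28 higher with shCdk8.1830 on the log2 scale (SE 0.116, adjusted p = 0.0907), a difference that did not pass the test.

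None of the 10 genes passed the test with SnxB in any line. In cntrl cells 0 of 10 passed, against 5.54% of all genes tested, with log2 fold changes from -0.18 for Rel to 0.14 for Birc3. In shCdk8.1593 cells 0 of 10 passed (1.48% of all genes), and in shCdk8.1830 cells 0 of 10 (2.05%). By edgeR's quasi-likelihood test with no adjustment (p under 0.05), 1 gene differed in cntrl cells (Nfkb2), 2 in shCdk8.1593 cells (Tnfaip3 and Rela) and 3 in shCdk8.1830 cells (Rel, Rela and Nfkb2), and DESeq2 called 0 in each line. The SE of these log2 fold changes ran from 0.037 to 0.159, so that small changes could not be told from 0, above all for Nfkbiz.

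The gene nearest to the threshold was Nfkb2. Its cntrl libraries were at 83.5, 86.8 and 82.8 CPM in DMSO and at 92.7, 89.5 and 91.0 CPM in SnxB, so these groups did not overlap, with the SnxB libraries higher (log2 fold change 0.11, SE 0.0388, adjusted p = 0.116). In shCdk8.1830 cells the SnxB libraries, at 68.7, 71.0 and 67.2 CPM, were all lower than the DMSO libraries (log2 fold change -0.14, SE 0.0397, adjusted p = 0.0853). In shCdk8.1593 cells the groups overlapped and the log2 fold change was -0.02 (SE 0.0401, adjusted p = 0.901). The difference between the SnxB effects in shCdk8.1830 and cntrl cells was -0.25 (SE 0.0555, adjusted p = 0.165). For the interaction of SnxB with shCdk8.1593 and with shCdk8.1830, 0 and 0 of the 10 genes passed, against 0.305% and 0.0548% of all genes. At an unadjusted p under 0.05 it was 1 gene in each, Nfkb2, by edgeR's quasi-likelihood test, and DESeq2 called 0.

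**Figure D3:**
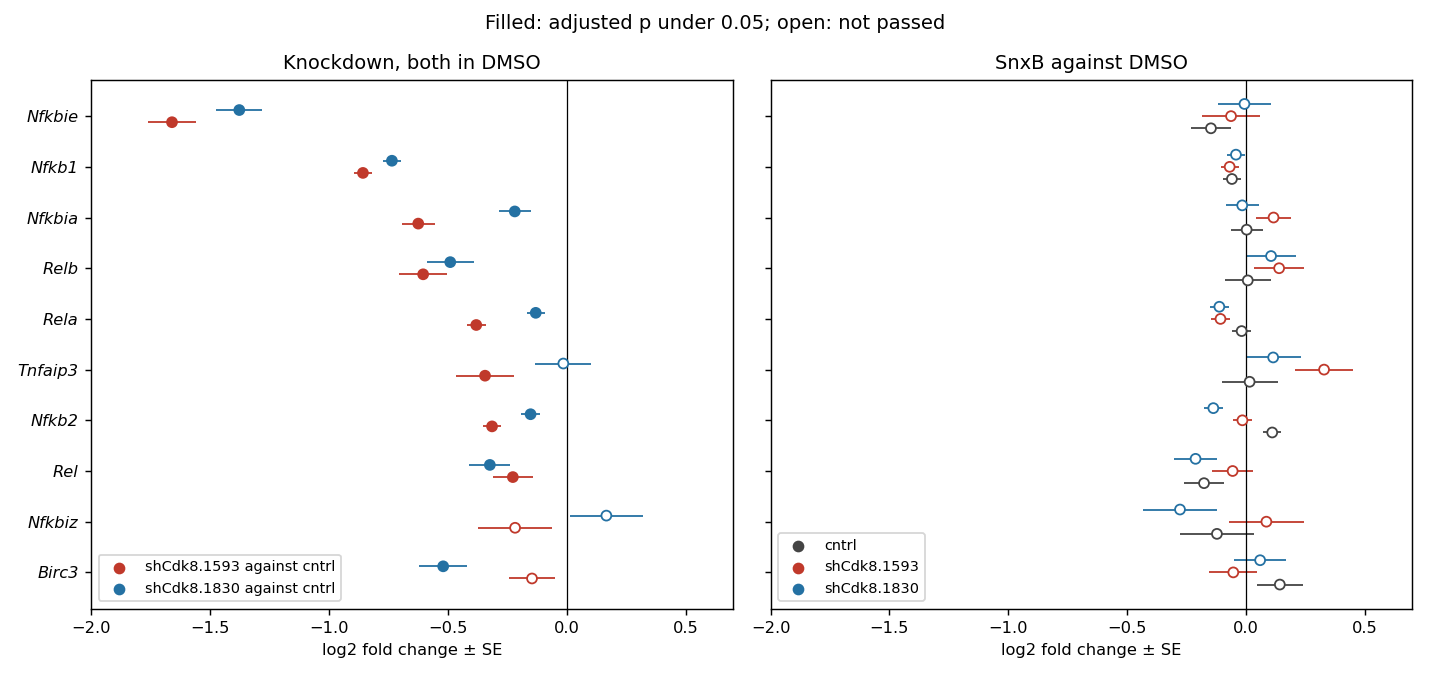
Log2 fold change with its SE (horizontal axis) of the 10 genes (rows) for the knockdowns in DMSO on the left and for SnxB against DMSO in each line on the right, from edgeR's quasi-likelihood fit of 18 libraries, with filled points at an adjusted p under 0.05. Of the left-hand points, 16 of 20 are filled and below 0, and none of the 30 on the right is filled.

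The knockdowns were also compared within SnxB. With shCdk8.1593 against cntrl, both in SnxB, 7 of the 10 genes fell and 0 rose (30.1% and 30.5% of all genes), and with shCdk8.1830 8 fell and 0 rose (28.6% and 28.1%). Nfkbie was at 12.8, 11.4 and 10.9 CPM in cntrl cells in SnxB, at 3.76, 4.04 and 3.97 CPM with shCdk8.1593 and at 4.98, 4.95 and 4.96 CPM with shCdk8.1830, and it was again the only one of the 10 past 2-fold with each hairpin (7.06% and 5.75% of all genes). Its log2 fold change was -1.58 (SE 0.104, adjusted p = 5.8e-11) with shCdk8.1593 and -1.24 (SE 0.0993, adjusted p = 1.66e-09) with shCdk8.1830. Birc3 fell with both hairpins in SnxB, by 0.34 (SE 0.0979, adjusted p = 0.00502) and 0.60 (SE 0.101, adjusted p = 3.52e-05) on the log2 scale. Tnfaip3 (adjusted p = 0.842 and 0.583) and Nfkbiz (adjusted p = 0.963 and 0.96) passed with neither, and Rel passed with shCdk8.1830 (adjusted p = 0.00174) and not with shCdk8.1593 (adjusted p = 0.306).

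Nfkbie also had the widest range over the 6 groups, 3.04-fold between the highest and lowest group mean on the log2(CPM + 0.5) scale. Its group means were highest in cntrl in DMSO, followed by 11.7 CPM in cntrl in SnxB, then shCdk8.1830 in DMSO, 4.96 CPM with shCdk8.1830 in SnxB, and 4.12 and 3.93 CPM with shCdk8.1593 in DMSO and SnxB. Adjacent groups in this order overlapped except cntrl in SnxB with shCdk8.1830 in DMSO, and shCdk8.1830 in SnxB with shCdk8.1593 in DMSO. Of 11181 genes whose mean reached 1 CPM, the 3 whose centred profile over the 6 groups was closest to Nfkbie were Prkacb, a catalytic subunit of protein kinase A (root mean square difference 0.0441 on the log2 scale), Ero1lb, an oxidoreductase of the endoplasmic reticulum (0.0573), and AA467197 (0.0597). Prkacb was at 439 CPM in cntrl in DMSO and at 143 and 174 CPM with shCdk8.1593 and shCdk8.1830.

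Of the other genes of the pathway, a list of 80, also chosen with earlier results of these data known, was followed, and 63 of these were tested. With shCdk8.1593 in DMSO, 12 rose and 35 fell, and with shCdk8.1830 10 rose and 35 fell, where 30.1% of all genes tested rose and 29.5% fell with shCdk8.1593 and 29.0% rose and 28.1% fell with shCdk8.1830. The median log2 fold change was -0.21 and -0.16. Of the 63 genes, 2 were higher and 7 lower in cntrl cells in SnxB, where 5.54% of all genes passed in either direction.

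All 3 ligand genes tested fell with both hairpins, against 29.5% of all genes with shCdk8.1593 and 28.1% with shCdk8.1830. Tnfsf13b, the gene of the B cell factor BAFF, was at 3.39, 2.93 and 2.65 CPM in cntrl cells in DMSO, at 0.094, 0.456 and 0.207 CPM with shCdk8.1593 and at 0.74, 0.409 and 0.548 CPM with shCdk8.1830. Tnf was low throughout, with 7 to 15 counts per cntrl library in DMSO, 1 to 4 with shCdk8.1593 and 3 to 8 with shCdk8.1830. Tnfsf12, the gene of TWEAK, fell by 0.49 and 0.47 on the log2 scale (adjusted p = 0.00173 and 0.00263). The other 5 ligand genes on the list, among them Il1a and Il1b, were below the filter.

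Of 10 receptor genes tested, 5 fell with shCdk8.1593 and 8 with shCdk8.1830, against 29.5% and 28.1% of all genes, and none rose with either (30.1% and 29.0% of all genes). Their median log2 fold change was -0.51 and -0.57. Tlr3, a sensor of double-stranded RNA, was at 24.4 ± 1.60 CPM (SD, n = 3) in cntrl cells in DMSO, 7.43 ± 0.148 CPM (SD, n = 3) with shCdk8.1593 and 4.83 ± 0.0853 CPM (SD, n = 3) with shCdk8.1830. Il1r1, the interleukin-1 receptor, was at 77.9 ± 4.37, 24.1 ± 1.02 and 41.6 ± 0.313 CPM (SD, n = 3 each). Tlr2 and Cd40 fell by 2.15 and 1.29 on the log2 scale with shCdk8.1593 and by 1.23 and 1.06 with shCdk8.1830 (adjusted p at most 1.18e-05).

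The adaptors and kinases moved in both directions. Of 24 tested, 5 rose and 12 fell with shCdk8.1593, and 4 rose and 10 fell with shCdk8.1830, next to 30.1% and 29.5% of all genes with shCdk8.1593 and 29.0% and 28.1% with shCdk8.1830. Ikbke, the gene of the kinase IKKε, was the only one past 2-fold with each hairpin, with log2 fold changes of -1.88 (SE 0.113, adjusted p = 1.42e-11) and -1.05 (SE 0.103, adjusted p = 3.41e-08). Ikbkb, the gene of IKKβ, fell by 0.49 and 0.37 on the log2 scale. Irak4 and Myd88, which relay signals of the interleukin-1 and Toll-like receptors, fell by 0.59 and 0.39 with shCdk8.1593 and by 0.48 and 0.34 with shCdk8.1830. All of these passed the test.

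Among 11 other inhibitors tested, 3 rose and 5 fell with shCdk8.1593, and 1 rose and 5 fell with shCdk8.1830. The share that rose with shCdk8.1593 was near that of all genes (30.1%), while 29.0% of all genes rose with shCdk8.1830 and 29.5% and 28.1% fell with the 2 hairpins. Tnip1, which encodes a partner of A20, fell by 0.88 and 0.74 on the log2 scale and Cyld, a deubiquitinase gene, by 0.64 and 0.46 (adjusted p at most 5.95e-08). Rnf11, a further partner of A20, fell by 0.25 and 0.16 in DMSO. Within SnxB Rnf11 passed edgeR's quasi-likelihood test with neither hairpin (-0.10 and -0.04, adjusted p = 0.0755 and 0.48). Nfkbib, the gene of IκBβ, rose instead in DMSO, with log2 fold changes of 0.20 (adjusted p = 0.0326) and 0.23 (adjusted p = 0.0137). Its cntrl libraries in DMSO were at 27.2, 33.6 and 32.7 CPM. Within SnxB it passed edgeR's quasi-likelihood test with neither hairpin (0.05 and 0.04, adjusted p = 0.607 and 0.68). The 3 classical IκB genes Nfkbia, Nfkbie and Nfkbib thus did not all move the same way in DMSO.

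Of 15 other target genes tested, 4 rose and 10 fell with shCdk8.1593, and 5 rose and 9 fell with shCdk8.1830. The shares that rose were near those of all genes (30.1% and 29.0%), and the shares that fell were above them (29.5% and 28.1%). Traf1, a target that signals below TNF receptors, was at 21.7 ± 1.36 CPM (SD, n = 3) in cntrl cells in DMSO, 3.12 ± 0.258 CPM (SD, n = 3) with shCdk8.1593 and 4.91 ± 1.11 CPM (SD, n = 3) with shCdk8.1830. Ccl2, a monocyte chemokine, fell by 2.00 and 1.47 on the log2 scale, and the protease gene Mmp9 fell by 3.13 and 1.23. Ptgs2, the gene of the prostaglandin synthase COX-2, went the other way, with 0 counts in the 6 cntrl libraries and 20 to 42 counts in the knockdown libraries in DMSO, at least 6.89-fold higher with shCdk8.1593 and at least 8.93-fold higher with shCdk8.1830 against a floor of 3 counts per library. The other targets that rose, named after their values were seen, were Icam1 (1.18 and 2.17), Gadd45b (1.06 and 0.78) and Sod2 (0.48 and 0.38 on the log2 scale) with both hairpins and Ccl5 with shCdk8.1830 (0.81, adjusted p = 0.0164).

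In cntrl cells given SnxB the 9 list genes that passed were mostly receptors and inhibitors, and they too were named after their values were seen. Tlr2 (-0.68, adjusted p = 0.026), Tlr3 (-0.29), Tlr4 (-0.23), Tnfrsf12a (-0.26), Cyld (-0.28), Rnf11 (-0.17) and Plau (-0.41) fell on the log2 scale. Il1rap (0.30) and Ier3 (0.20) rose. In SnxB against DMSO, 1 list gene rose in shCdk8.1593 cells (Ier3, 0.19) and 3 fell in shCdk8.1830 cells (Tnfrsf1a, Plau and Irak1), where 1.48% and 2.05% of all genes passed in either direction.

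**Figure D4:**
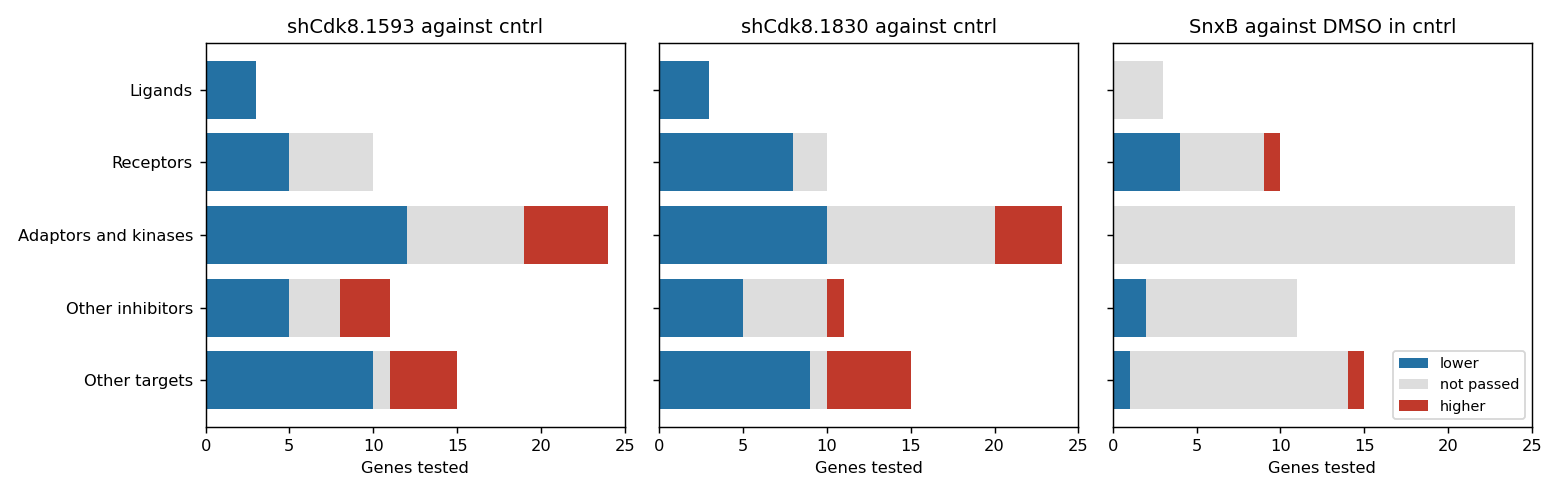
Number of genes tested (horizontal axis, from 0) in each of 5 lists of other NF-κB pathway genes that were lower (blue), not passed (grey) or higher (red) at an adjusted p under 0.05, for each hairpin in DMSO and for SnxB in cntrl cells. All 3 ligand genes were lower with both hairpins and none with SnxB, and of the 24 adaptors and kinases none passed with SnxB. The ligand gene Tnf passed the low-count filter only through cntrl libraries.

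Genes near the 10 genes were compared with them, since neighbours on a chromosome can move together. Among tested genes within 1 Mb, the neighbours of Nfkbie (28 genes) had a median log2 fold change of 0.23 with each hairpin, those of Nfkbia (14 genes) 0.16 and 0.43 and those of Nfkbiz (9 genes) 0.53 and 0.43 with shCdk8.1593 and shCdk8.1830. Near Nfkbie 14 and 15 rose and 5 and 6 fell. Near Nfkbia 6 and 11 rose and near Nfkbiz 7 and 7, and 0 fell near either. Of all genes tested, 30.1% and 29.0% rose and 29.5% and 28.1% fell. The neighbours of Nfkb1 (9 genes) had medians of -0.20 and -0.21, with 5 and 6 genes that fell and 0 that rose, among them Manba, 13251 bases away and named after its values were seen, at -0.81 and -0.61.

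Birc3 had 11 tested neighbours. With shCdk8.1593 8 of these fell (29.5% of all genes) and with shCdk8.1830 7 (28.1%), and 0 rose with either (30.1% and 29.0%). The matrix metalloproteinase genes Mmp13, Mmp1b, Mmp3, Mmp1a and Mmp10, 338459 to 565368 bases away and named after their values were seen, were among them. Mmp3 had 1726 to 1974 counts per library in cntrl cells in DMSO, 3 to 19 with shCdk8.1593 and 31 to 49 with shCdk8.1830, and the other 4 had 61 to 463, 0 to 7 and 1 to 23 counts. Birc2, the paralog of Birc3, which can share reads with it that the authors' counting left out, lies 11635 bases away and was at -0.31 and -0.13, and Yap1 on its other side at -0.01 and -0.06. Tnfaip3 on chromosome 10 had 10 neighbours with medians of -0.28 and -0.48, of which 6 and 8 fell and 1 and 1 rose. The neighbours of Rela, Nfkb2, Rel and Relb had medians from -0.000866 to 0.376. With shCdk8.1830 against shCdk8.1593 in DMSO, Rela and Nfkb2 were at 0.25 and 0.16, close to the medians of their neighbours. These were 0.23 for Rela (80 genes, 45 higher and 0 lower by the test) and 0.15 for Nfkb2 (36 genes, 13 and 1). Of all genes, 21.1% passed in either direction. The neighbours of Nfkb1, Nfkbia and Birc3 had medians of 0.07, 0.15 and 0.18, with these genes at 0.12, 0.41 and -0.37. The cause was not tested.

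**Figure D5:**
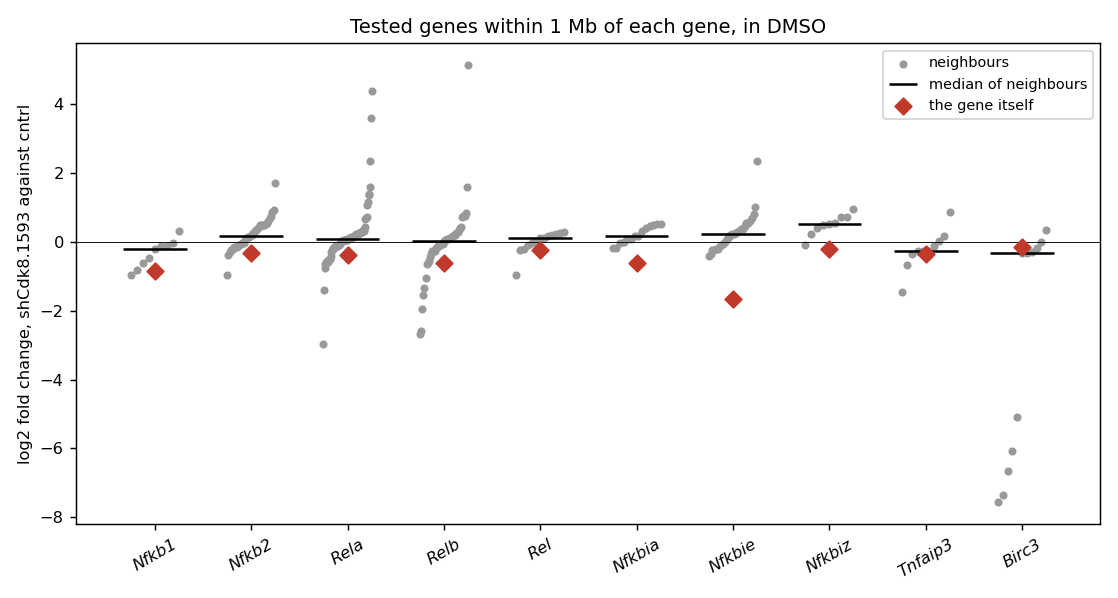
Log2 fold change of shCdk8.1593 against cntrl in DMSO (vertical axis) for the 10 genes (red diamonds) and for the tested genes within 1 Mb of each (grey points, sorted; black bars: their medians). Nfkbie lies at -1.66 below neighbours with a median of 0.23, and 5 metalloproteinase genes near Birc3 lie below -5 on fitted values that rest on 0 to 19 counts per knockdown library, while Birc3 itself is at -0.15.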

How the data were processed

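Total RNA of E0771 cells was sequenced as single-end reads of 50 bp in 18 libraries. The authors trimmed reads with Trimmomatic, aligned them with STAR to GRCm38 (mm10) and counted reads per gene by strand with featureCounts 1.5.1 on GENCODE M13, per the file headers and the submitters' processing notes. The deposited values are these counts, not normalized.

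Counts were analysed in R 4.3.3 with edgeR 4.0.16: filterByExpr (minimum count 10, minimum total 15), TMM, and glmQLFit and glmQLFTest in 1 fit of 18 libraries with 10 comparisons and Benjamini-Hochberg adjustment over 12772 genes. CPM use TMM-scaled library sizes. SEs derive from the F statistic. Symbols come from GENCODE M21 (50376 of 50686 IDs). The floor of 3 counts covers counting error only. Libraries of 1 group differed by more than sampling noise (chi-square per gene 1.62 to 17.5). The code was checked on simulated data: with 200 of 12518 genes changed, the shCdk8.1593 comparison in DMSO recovered 190 with 14 false calls. Far fewer genes changed there than in these data, so this checks the code and not the calls above.

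The 10 genes and the lists were chosen with earlier results of these data known. Named were the 10 genes, Cdk8 and Cdk19, up to 4 genes per list that passed in 1 direction with both hairpins in DMSO (largest smaller change first), and the 3 genes closest to the gene of widest range. Alternatives were DESeq2 1.42.0, its size factors, library totals, no filter, more than 1 CPM in at least 3 libraries, only the groups compared, the replicate block and each library left out.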

Additional observations from a re-analysis of the deposited data

How the results depend on the processing

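Over the alternatives to the normalization, the filter, the test and the libraries fitted, the count of the 10 genes that passed stayed within 1.5 times its value for all 10 comparisons. With single libraries left out it was 6 to 7 with shCdk8.1593 in DMSO, 6 to 8 with shCdk8.1830 in DMSO and 4 to 6 between the hairpins, and it did not move from 7 and 8 in SnxB or from 0 for SnxB in the 3 lines and the interactions. No called fold change reversed. Counted for each gene, comparison and setting, 4 calls were lost and 3 gained over the alternatives other than leaving out a library. With a library left out 15 were lost and 4 gained. The same gene and comparison can count more than once. Gains were Nfkbiz with shCdk8.1593 in DMSO without the filter (adjusted p = 0.049 from edgeR) and, between the hairpins, Nfkbiz without the filter (0.000154), with only the groups compared (0.0422) or without shCdk8.1593 replicate 3 (0.0452), Tnfaip3 without shCdk8.1593 replicate 1 (0.0413) or shCdk8.1830 replicate 2 (0.0188), and Nfkbie without shCdk8.1830 replicate 2 (0.0436). The cause was not tested.

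The replicate numbers share no stated origin, and the 45 correlations of same-numbered libraries' deviations ran from -0.25 to 0.318 (median -0.00985), so the numbers were not taken to pair the libraries. With the replicate number as a block, 8, 8 and 5 genes passed with shCdk8.1593, with shCdk8.1830 and between them in DMSO, 7 and 8 with the hairpins in SnxB, and 0 in the SnxB and interaction comparisons.

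Depth limits the low genes most: Tnfaip3 had 60 to 113 counts per library and Nfkbie 68 to 274.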
